A study of Mus musculus with 2 samples.

Results

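*Cntn5*, *Ralyl*, *Ntng1*, *Epha3*, *Flrt2*, *Magi2*, *Fbn2*, *Cntnap2*, *Kcnc2* and *Sntg2* are 10 of the 32285 genes of both count matrices. They were chosen by their measured levels: earlier work on these data had found a set of DKO-severe Cd4 cells with high *Cntn5*, and these genes were selected on their UMI counts there. The difference between genotypes in Cd4-gated cells is therefore part of how the genes were chosen and is given as a description. T cells, sorted as TCRβ+, came from the spleen and the cervical and inguinal lymph nodes of 1 Foxp3Cre WT mouse and 1 Foxp3Cre Tet2/3 flox/flox mouse of the DKO-severe class, assigned from its high leukocyte number, both 14 weeks old. Both mice carried Cre in the *Foxp3* gene, which in the flox/flox mouse directs the deletion of *Tet2* and *Tet3* to Treg cells and cells descended from them. The paper adds that this Cre is considered leaky, with low random expression while blood cells develop. Each mouse was marked with its own hashtag antibody and both were captured in 1 droplet library of 3′ transcript ends. With 1 mouse per genotype nothing was tested, a difference between the mice cannot be told apart from a difference between the genotypes, and every interval below is an exact 95% interval that covers counting error only.

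Most of these genes are best known from the nervous system. Contactins, netrin-Gs, FLRT proteins, contactin-associated proteins and Eph receptors sit on the surface of neurons and take part in adhesion, axon guidance and the building of synapses, while PDZ scaffolds such as the MAGI and syntrophin proteins hold receptors and channels in place beneath the membrane. In most tissues genes of this kind are kept silent, in part through DNA methylation and the REST repressor. TET2 and TET3 oxidise methylated cytosine, mostly where it is followed by guanine (CG). The main CD4 cell states of inflamed spleen and lymph node are naive cells, Foxp3-expressing Treg cells and T follicular helper (Tfh) cells, which help B cells.

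The sequences around the transcription starts were read from RefSeq (GRCm38.p6), which held windows of 300 bases, 250 before and 50 after a start, for 8 of the 10 genes, and none for *Ralyl* and *Fbn2*. Windows of 4 genes are shown because they run from the fewest CG to nearly the most in a group of genes that were high together, with each CG in capitals and each window read 5′ to 3′ on the gene's strand. They cover the first listed starts of *Cntn5* (chr9:10904726-10905025, minus strand), *Ntng1* (chr3:110143423-110143722, minus strand), *Cntnap2* (chr6:45059811-45060110, plus strand) and *Kcnc2* (chr10:112269767-112270066, plus strand).
Cntn5: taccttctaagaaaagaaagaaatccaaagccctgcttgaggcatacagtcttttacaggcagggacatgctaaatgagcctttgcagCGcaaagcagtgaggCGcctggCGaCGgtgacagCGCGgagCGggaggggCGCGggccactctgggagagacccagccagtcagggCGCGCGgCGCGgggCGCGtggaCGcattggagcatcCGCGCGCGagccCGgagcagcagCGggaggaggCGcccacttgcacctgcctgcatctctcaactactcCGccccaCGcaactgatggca
Ntng1: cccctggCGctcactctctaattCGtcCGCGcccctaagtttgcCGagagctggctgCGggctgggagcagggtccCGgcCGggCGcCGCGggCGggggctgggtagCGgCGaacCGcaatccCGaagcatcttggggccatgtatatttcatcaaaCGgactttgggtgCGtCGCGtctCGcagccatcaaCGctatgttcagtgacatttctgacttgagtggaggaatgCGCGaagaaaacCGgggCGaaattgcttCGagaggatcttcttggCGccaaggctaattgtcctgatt
Cntnap2: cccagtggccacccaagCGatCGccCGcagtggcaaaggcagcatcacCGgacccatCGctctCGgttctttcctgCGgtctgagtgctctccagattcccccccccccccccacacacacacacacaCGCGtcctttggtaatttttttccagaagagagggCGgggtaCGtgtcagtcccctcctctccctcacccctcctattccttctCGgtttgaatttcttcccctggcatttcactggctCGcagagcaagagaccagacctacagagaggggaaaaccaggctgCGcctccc
Kcnc2: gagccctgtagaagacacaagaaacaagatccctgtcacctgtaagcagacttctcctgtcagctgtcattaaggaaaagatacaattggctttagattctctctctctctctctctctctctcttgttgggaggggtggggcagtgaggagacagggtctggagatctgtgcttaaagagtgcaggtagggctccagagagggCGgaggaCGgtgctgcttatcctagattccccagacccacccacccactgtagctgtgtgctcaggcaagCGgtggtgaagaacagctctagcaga

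The *Cntn5* window held 26 CG, that of *Ntng1* 28, that of *Cntnap2* 14 and that of *Kcnc2* 3. Over the 8 genes the first windows held 3 to 29 CG with a median of 16, against a median of 7 over all 32851 windows and of 22 over the 6557 windows of genes tested in Cd4-gated cells. The 8 genes thus shared no CG class, since they ran from *Kcnc2*, with more CG than 23.3% of all windows, to *Magi2*, with more than 87.1%. Letters read as a RUNX motif (TGTGGT, either strand) occurred in the windows of *Flrt2* and *Magi2*, against 16.8% of all windows. An E-box (CAGCTG) occurred in those of *Kcnc2* and *Magi2*, against 16.3%. Those of AP-1 (TGANTCA, in 7.81% of all windows), TCF (CTTTGA, in 16%) and a TATA box (TATAAA, in 13.6%) occurred in none of the 8 genes' windows.

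After filtering, 6587 of 7189 WT barcodes (median 5617 unique molecular identifiers, UMIs, per cell) and 6377 of 7161 DKO-severe barcodes (median 8072) were kept, and the matrices shared 0 barcodes. Cd4-gated cells had a Cd3 and a Cd4 UMI and none of *Cd8a* or *Cd8b1* (1740 WT and 2749 DKO-severe cells), and Cd8-gated cells the reverse (3053 and 1736). Foxp3-positive cells were the Cd4-gated cells with a *Foxp3* UMI (64 and 336). Their median depth was 5382.5 and 11607.5 UMIs, against 7969 in DKO-severe Cd4-gated cells without a *Foxp3* UMI. The non-T gate had neither Cd4 nor Cd8 and at least 5 UMIs of B cell, monocyte or granulocyte markers (36 and 490 cells, of which 14 and 271 had no Cd3 UMI). *Tet2* had 56.6 CPM (UMIs of a gene scaled to a common total) in WT and 71.1 in DKO-severe Foxp3-positive cells and *Tet3* had 89.3 and 87.3, but 3′ reads outside a deleted exon are still counted, so these levels do not check the deletion. Granulocyte markers, which a TCRβ sort should remove, rose with the genotype in Cd4-gated cells, from 74.3 to 2584 CPM summed over 4 genes, as did those of monocytes, from 53.1 to 443 CPM, while B cell markers were at 29.5 and 24.1 CPM. In Foxp3-positive cells granulocyte markers were at 63.2 and 3211 CPM. The part of all these markers in the results below was not tested beyond the values given with the cell states.

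In Cd4-gated cells all 10 genes were at 18.5 CPM or less in WT and at 58.5 CPM or more in DKO-severe. Their log2 ratios, DKO-severe over WT, ran from 4.42 to 7.56 with a median of 6.32, against a median of 0.10 over the 6338 genes tested (mean of 20 or more CPM over both genotypes). A log2 ratio of 1 or more was found for 508 of the 6338 genes (8.02%) and for 10 of the 10, which the choice of the genes fixes. Fewer cells that transcribe a gene and fewer transcripts per cell are told apart here only by the per-cell counts given with each gene.

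Among the surface molecules, *Cntn5*, which encodes contactin-5, a lipid-anchored adhesion molecule of the immunoglobulin superfamily, had 122 UMIs in WT (11.9 CPM) and 49618 in DKO-severe (1760 CPM), a log2 ratio of 7.21 (6.95 to 7.48). It was concentrated in a minority of cells: 849 of 2749 DKO-severe cells had a *Cntn5* UMI, 305 of them had 50 or more, and 1 cell had 591. No WT Cd4-gated cell had more than 10. *Ntng1*, encoding netrin-G1, a lipid-anchored relative of the netrin guidance cues, had 12 and 6227 UMIs (1.17 and 221 CPM), a log2 ratio of 7.56 (6.75 to 8.51) that rests on few WT UMIs and was 5.19 with a pseudocount of 5 CPM, against 6.71 for *Cntn5*. Its 727 positive DKO-severe cells had a median of 5 UMIs and a maximum of 82. *Flrt2*, a transmembrane protein with leucine-rich repeats that binds Unc5 receptors and latrophilins, had 24 and 5464 UMIs (2.34 and 194 CPM, log2 ratio 6.37, 5.80 to 7.01) and was spread more thinly, over 929 cells with a median of 4. *Cntnap2*, encoding Caspr2, which organises potassium channels on axons, was the rarest of the 10 by cells, with 13 and 2559 UMIs (1.27 and 90.8 CPM, log2 ratio 6.16, 5.38 to 7.07) in 11 and 233 cells.

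*Epha3*, a receptor tyrosine kinase for the A-type ephrins, had 6 single UMIs in 6 WT cells and 2200 UMIs in 451 DKO-severe cells (0.586 and 78.0 CPM, log2 ratio 7.06, 5.93 to 8.51). *Kcnc2*, the Kv3.2 potassium channel of fast-firing neurons, had the smallest ratio of the 10, with 28 and 1650 UMIs (2.73 and 58.5 CPM, log2 ratio 4.42, 3.88 to 5.01). Its WT UMIs lay in only 8 cells, 1 of which held 8.

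Under the membrane, *Magi2*, a scaffold with several PDZ domains, had 88 and 14639 UMIs (8.59 and 519 CPM, log2 ratio 5.92, 5.62 to 6.24), and 1 WT cell held 27 of the 88. *Sntg2*, γ2-syntrophin, an adaptor of the dystrophin complex, had 20 and 4254 UMIs (1.95 and 151 CPM, log2 ratio 6.27, 5.64 to 6.98). *Sntg2* was found in 962 DKO-severe cells, nearly as many as *Magi2* with 986, but at a median of 3 UMIs against 8.

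The remaining genes act elsewhere in the cell. *Fbn2*, encoding fibrillin-2, a component of extracellular microfibrils and not a neuronal protein, had 25 and 3541 UMIs (2.44 and 126 CPM, log2 ratio 5.69, 5.12 to 6.32). *Ralyl*, an RNA-binding protein related to RALY, was the most abundant of the group and the only 1 found in most DKO-severe Cd4-gated cells. It had 189 UMIs in 108 WT cells and 62523 in 1602 DKO-severe cells (18.5 and 2217 CPM, log2 ratio 6.91, 6.70 to 7.12), and its highest cell held 332.

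**Figure D1:**
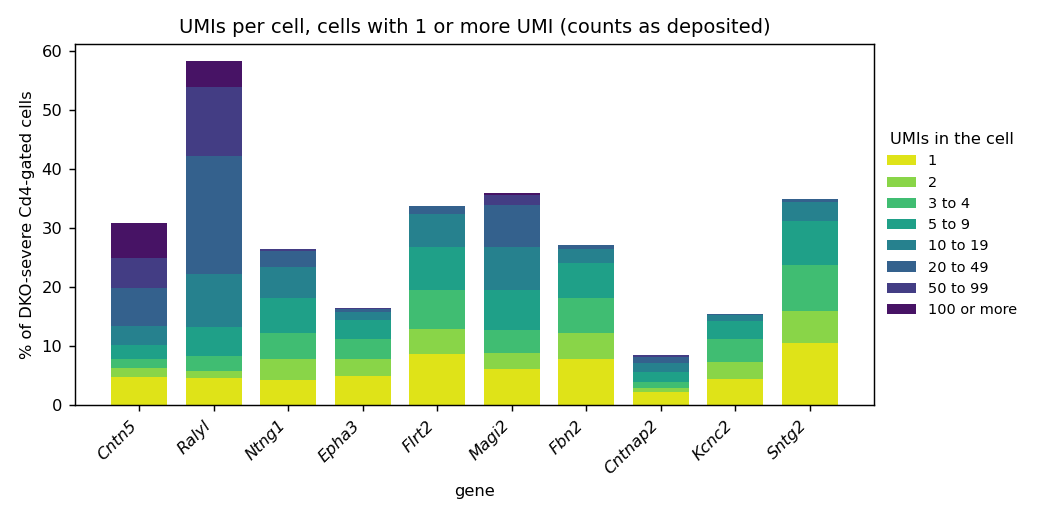
Share of the 2749 DKO-severe Cd4-gated cells (y axis, percent) with 1 or more UMI of each gene (x axis), coloured by the number of UMIs in the cell, from the counts as deposited. *Cntn5* and *Ralyl* reach 100 or more UMIs in 164 and 120 cells, whereas most cells positive for *Flrt2*, *Fbn2*, *Kcnc2* or *Sntg2* hold fewer than 10.

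Across gates the DKO-severe levels were ordered Cd4 above Foxp3-positive above Cd8 for all 10 genes. In Foxp3-positive DKO-severe cells *Ralyl* had 402 CPM, *Cntn5* 266, *Magi2* 194, *Ntng1* 55.3, *Sntg2* 52.6, *Flrt2* and *Cntnap2* 37.3 each, *Fbn2* 33.2, *Epha3* 11.5 and *Kcnc2* 10.0. These lay below the 2598 CPM of *Ralyl* and 2073 CPM of *Cntn5* in Cd4-gated cells without a *Foxp3* UMI. The drop was not equal for all, since *Cntnap2* was at 37.3 CPM against 102 and *Cntn5* at 266 against 2073. *Cntn5* in Foxp3-positive cells also rested on few cells, with 17 cells at 5 or more UMIs and 18.7% of the UMIs in 1 cell, while *Ralyl* had 64 cells at 5 or more.

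The 64 WT Foxp3-positive cells held 18 UMIs of the 10 genes in all, and *Ntng1*, *Epha3*, *Cntnap2* and *Kcnc2* were at 0, which allows up to 6.54 CPM. Set against that limit, *Ntng1* had a log2 ratio of 3.08 (lower end of the exact interval 2.77). The values were 2.51 (2.20) for *Cntnap2*, 0.81 (0.47) for *Epha3* and 0.62 (0.27) for *Kcnc2*. Without the highest DKO-severe cell these ratios were 2.89, 2.19, 0.21 and 0.00, so those of *Epha3* and *Kcnc2* rested largely on 1 cell. *Ralyl* and *Cntn5*, with 5 WT UMIs each, had log2 ratios of 5.20 (3.98 to 6.83) and 4.61 (3.38 to 6.23). With gates of 2 or more UMIs *Cntn5* was at 2.56, *Ntng1* at 1.19, *Flrt2* at 0.46 and *Sntg2* at 0.37, and *Epha3*, *Cntnap2* and *Kcnc2* lay below the limit set by the WT total of 0. Of the 6 genes that passed the filter on low values all 6 had a log2 ratio of 1 or more, beside 7.96% of the 6492 genes tested (4 of 6 with those gates), but a gene at 0 in WT passes only through its DKO-severe level, so this count supports nothing about the group.

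In Cd8-gated cells, where *Foxp3*, which drives Cre, was at 1.48 CPM in WT and 1.27 in DKO-severe, levels were far lower and lay in few cells. *Cntn5* went from 177 UMIs (8.43 CPM) in WT to 907 (54.8 CPM) in DKO-severe, but 1 cell held 372 of the 907, and the median positive cell had 1 UMI in both genotypes. *Ralyl* showed the same shape, with 218 and 887 UMIs, of which 181 lay in 1 cell. Only these 2 genes passed the filter on low values and both had a log2 ratio of 1 or more (2.70, 2.47 to 2.94, and 2.37, 2.15 to 2.59), beside 1.71% of 5849 genes tested. Both passed only through their DKO-severe level, so the count supports nothing about the group, and with gates of 2 or more UMIs the ratio of *Ralyl* was 0.99. Without the highest cell of each gene these ratios were 1.97 and 2.08, and that of *Magi2* went from 1.23 to 0.72. *Cntnap2*, found as 20 single UMIs in 20 cells, did not differ from WT beyond counting error (log2 ratio 0.02, -0.90 to 0.93). *Epha3* differed in being spread over cells (108 UMIs in 53 cells, at most 8 in a cell, against 19 in 15 WT cells), with a log2 ratio of 2.85 (2.14 to 3.64). *Sntg2* was likewise not gathered in 1 cell, with 67 UMIs in 39 cells against 34 in 30, while the highest cell of *Cntn5*, *Ralyl*, *Ntng1*, *Flrt2*, *Magi2*, *Fbn2* and *Kcnc2* held 20.4% to 41.0% of its UMIs.

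**Figure D2:**
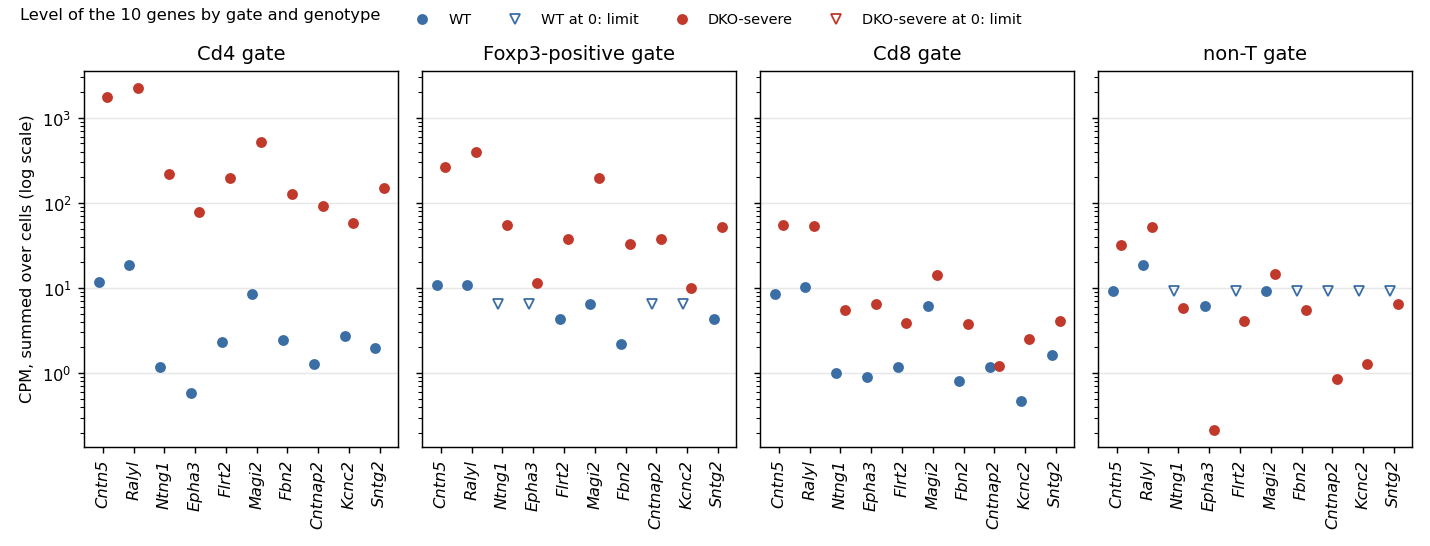
Level of each gene (x axis) in CPM summed over cells (y axis, log scale) in the Cd4, Foxp3-positive, Cd8 and non-T gates, with WT in blue, DKO-severe in red and an open triangle at the limit that 0 counts allow. The DKO-severe points of all 10 genes fall from the Cd4 to the Foxp3-positive to the Cd8 gate, from 1760 to 266 to 54.8 CPM for *Cntn5*.

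Shares of positive cells depend on depth, so each cell was thinned to 3800 UMIs and gated again on the thinned counts. In DKO-severe Cd4-gated cells (n = 1965) *Ralyl* was then detected in 58.1% (55.8 to 60.3), *Magi2* in 31.7%, *Cntn5* in 29.7% (27.7 to 31.8), *Flrt2* in 28.9%, *Sntg2* in 25.9%, *Ntng1* in 23.3%, *Fbn2* in 21.9%, *Epha3* in 13.2%, *Kcnc2* in 11.9% and *Cntnap2* in 6.67%. The intervals of *Magi2*, *Cntn5* and *Flrt2* overlapped, as did those of *Ntng1* and *Fbn2* and of *Epha3* and *Kcnc2*. At least 1 of the 10 genes was detected in 70.6% of these cells (68.5 to 72.6), in 51.8% of 83 Foxp3-positive DKO-severe cells (40.6 to 62.9) and in 12.4% of 1252 WT Cd4-gated cells (10.6 to 14.3). In the whole DKO-severe non-T gate the share was 18.3% (14.8 to 22.3) of 442 cells. Without Cd3 it was 9.06% (6.0 to 13) of 287, which may include T cells whose Cd3 UMIs were lost in thinning. In WT Cd8-gated cells it was 11.5% (10.4 to 12.7). The interval of the WT Cd4 share overlapped the last 2 and lay below that of the whole non-T gate. Those of the DKO-severe Cd4 and Foxp3-positive shares lay above them all. DKO-severe Cd8-gated cells had a like share of 11.7% (10.2 to 13.4), but 30 of them held 5 or more UMIs of the genes, against 2 in WT. Before thinning the Cd8 gates held 24 and 4 such cells. Some of the 30 thus entered the gate only because thinning removed their Cd4 UMIs.

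The low WT signal was mostly single UMIs of *Ralyl*, *Cntn5* and *Magi2* in both gates. Before thinning, *Cntn5* was found in 5.17% of WT Cd4-gated and 4.81% of WT Cd8-gated cells and *Ralyl* in 6.21% and 6.19%, at median depths of 5261.5 and 6246 UMIs. Of the 313 WT Cd4-gated cells with any of the 10 genes, 242 held exactly 1 UMI of them. *Cntn5*, *Ralyl* and *Magi2* made up 23.1%, 35.9% and 16.7% of these UMIs in WT Cd4-gated cells, 26.3%, 32.3% and 19% in WT Cd8-gated cells, and 32.5%, 41.0% and 9.59% in DKO-severe Cd4-gated cells. The rarer genes differed more, with *Kcnc2* at 5.31% in WT Cd4-gated and 1.48% in WT Cd8-gated cells and *Epha3* at 1.14% and 2.82%. Some WT Cd4-gated cells held many UMIs, up to 27 of *Magi2*, 21 of *Ralyl* and 8 of *Kcnc2*. WT and DKO-severe cells shared 1 capture, and what part free RNA from DKO-severe cells had in the WT counts was not tested.

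The 10 genes lay mostly in the same cells, which their choice from 1 set of DKO-severe Cd4 cells largely fixes, so what follows describes that overlap and is no support for it. For each pair, the number of DKO-severe Cd4-gated cells with both genes at equal depth was divided by the number expected from the separate shares. The median of this co-detection ratio over the 45 pairs was 1.94, against 1.003 over 46671117 pairs of genes with 5 or more expected cells. A ratio of 2 or more was found for 17 of the 45 pairs, beside 0.167% of all pairs. Pairs with *Ralyl* could not reach 2, because a gene in 1141 of 1965 cells caps the ratio at 1.72.

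*Cntn5* cells were nested within *Ralyl* cells. Of 584 cells with *Cntn5*, 541 (92.6%) also had *Ralyl*, as did 93.4% of *Ntng1*, 93.1% of *Sntg2*, 91.9% of *Flrt2*, 91.6% of *Cntnap2*, 91.0% of *Kcnc2*, 90.3% of *Fbn2*, 87.5% of *Magi2* and 77.2% of *Epha3* cells. In the other direction 47.4% of *Ralyl* cells had *Cntn5*. The closest pairs were *Cntn5* with *Cntnap2* (107 cells with both, 38.9 expected, ratio 2.75, 2.26 to 3.30), *Cntnap2* with *Sntg2* (92 and 33.9, ratio 2.71) and *Ntng1* with *Fbn2* (268 and 100, ratio 2.67, 2.38 to 2.99).

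The count of 17 fell to 5 with gates of 2 or more UMIs, 9 with no thinning and 11 in Foxp3-negative cells, so the grouping by it is loose. Joining the pairs at a ratio of 2 or more put 8 genes into 1 connected group and left out *Ralyl*, for the reason above, and *Epha3*. *Epha3* had ratios of at most 1.80, for *Cntnap2*, with 1.52 for *Cntn5* (1.26 to 1.81), and its pair with *Ntng1* was the only 1 below 1 (51 cells, 60.2 expected, ratio 0.85, 0.63 to 1.11). *Cntnap2* and *Kcnc2*, both in the connected group through other genes, were found together no more often than their shares give (16 cells, 15.6 expected, ratio 1.03, 0.59 to 1.66).

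**Figure D3:**
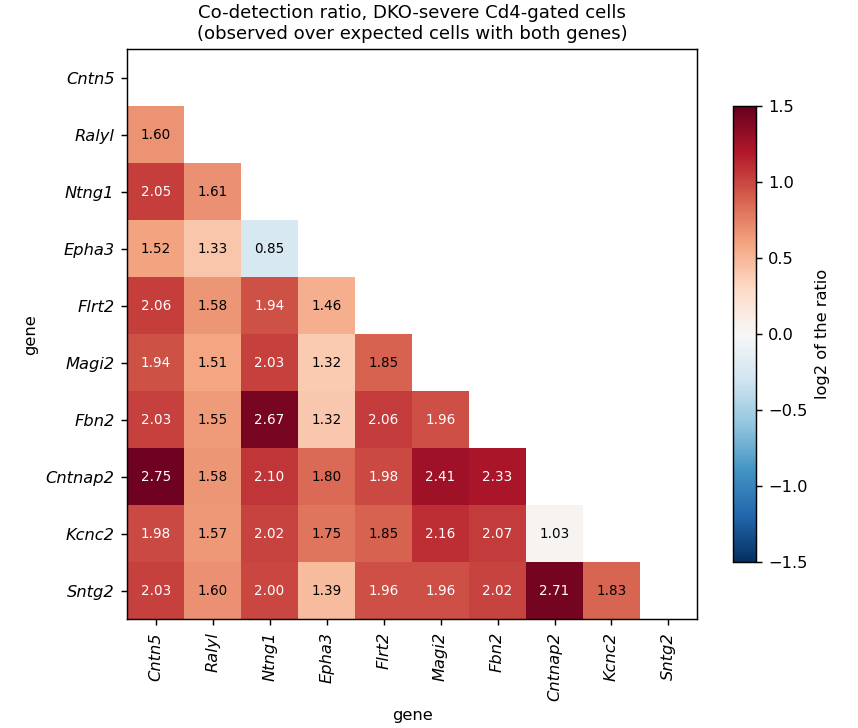
Co-detection ratio of each pair of genes (both axes) in 1965 DKO-severe Cd4-gated cells thinned to 3800 UMIs, printed in each square and coloured by its log2. All squares but *Ntng1* with *Epha3* (0.85) are above 1, and the highest is *Cntn5* with *Cntnap2* (2.75).

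Within the Cntn5-high cells the ratios of the other genes lay closer to 1, between 0.75 and 1.55, where genes found in most cells cannot reach high ratios and the depth and detection limit differ from those above. Among 481 cells with 20 or more *Cntn5* UMIs, at full depth and counting 2 or more UMIs as detection, 98.1% had *Ralyl*, 70.1% *Flrt2*, 69.9% *Magi2*, 66.3% *Sntg2*, 54.1% *Ntng1*, 50.5% *Fbn2*, 25.6% *Kcnc2*, 23.7% *Cntnap2* and 21.0% *Epha3*. *Flrt2* and *Magi2* met in 246 cells against 235 expected (ratio 1.04), and *Flrt2* and *Ntng1* in 184 against 182. The exceptions ran both ways. *Ntng1* with *Fbn2* kept a ratio of 1.32 and *Cntnap2* had 1.55 with *Epha3* and 1.34 with *Magi2*, while *Epha3* had 0.77 with *Ntng1* and *Kcnc2* had 0.75 with *Cntnap2*. The genes detected differed between Cntn5-high cells. At a limit of 2 UMIs a gene that is not detected may still be transcribed, so these values do not show separate subsets.

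The level of the other genes also followed that of *Cntn5*. From the 1900 cells without a *Cntn5* UMI to the 164 cells with 100 or more, *Ralyl* rose from 1140 to 6514 CPM, *Magi2* from 219 to 1988, *Sntg2* from 64.1 to 602, *Flrt2* from 81.7 to 641 and *Cntnap2* from 17.1 to 714. *Cntnap2* changed most between the 2 highest classes, from 179 CPM at 20 to 99 *Cntn5* UMIs to 714 CPM at 100 or more. Not all genes followed this course: *Ntng1* was at 579 CPM in cells with 5 to 19 *Cntn5* UMIs and 504 in those with 100 or more, and *Kcnc2* at 156 and 128. *Fbn2* was at 332, 262 and 349 CPM in the 3 highest classes and *Epha3* at 113, 93.6 and 253. Median depth was 8179 UMIs in the cells without *Cntn5* and 10235 in those with 100 or more. *Ralyl* was also present without *Cntn5*, in 43.9% of the 1900 cells.

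At equal depth the number of the 10 genes per DKO-severe Cd4-gated cell was broadly spread: 578 cells had 0, 722 had 1 to 3, 505 had 4 to 6 and 160 had 7 or more, and no cell had all 10. In WT Cd4-gated cells 1097 of 1252 had 0, 147 had 1, 8 had 2 and 0 had 4 or more, which allows a share of up to 0.294% as the upper bound of the interval. Foxp3-positive DKO-severe cells reached 4 to 6 genes in 7 of 83 cells and 7 or more in 0. Cd8-gated DKO-severe cells had 18 cells with 4 or more, counted as 14 with 4 to 6 and 4 with 7 or more, of 1571. These may include cells whose Cd4 UMIs were lost in thinning. *Cntnap2* had at most 1 UMI per cell in this gate before thinning, but 5 or more in 2 cells of the thinned gate. The full depth of the cells hardly moved across the classes, with medians of 7589.5, 8067, 8172 and 8081.5 UMIs, and the median doublet score was 0.0324, 0.0405, 0.0345 and 0.0260.

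Tfh genes were found in more of the cells that held many of the 10 genes. Each of the 9 Tfh genes listed was detected in a larger share of cells with 7 or more of the genes than of cells with 0, and 6 of the 9 at least 2-fold, while of 9562 other genes 54.0% were higher and 7.70% at least 2-fold higher. *Il21*, the Tfh cytokine that drives B cells, went from 0.519% of cells (0.107 to 1.51) through 15.2% and 38.8% to 54.4% (46.3 to 62.3). *Tox2*, a transcription factor of Tfh cells, went from 13.1% to 53.1%, *Maf*, which controls *Il21*, from 42.7% to 94.4%, and *Icos*, a costimulatory receptor, from 48.1% to 91.3%. *Bcl6*, the lineage factor of Tfh cells, moved less, from 21.6% (125 of 578 cells) to 36.3% (58 of 160), and *Cxcr5*, the follicle-homing receptor, from 7.09% to 16.9%.

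Genes of Treg and naive cells did not move as blocks. *Foxp3* fell from 6.92% (4.99 to 9.30) in cells with 0 of the 10 genes to 1.39% in those with 4 to 6 and 0 of 160 in those with 7 or more (upper bound 2.28%), *Ikzf4* from 8.65% to 0 of 160, and *Il2ra*, the IL-2 receptor α chain, from 18.3% to 8.13%. Other genes of the same list were found in more cells, with *Ctla4* going from 39.4% to 74.4% and *Nrp1* from 97 of 578 to 80 of 160 cells. *Ikzf2* was found in more cells (49.1% and 71.3%) but at a lower level (1148 and 671 CPM). Among naive genes *Lef1*, a transcription factor of naive T cells, was in 334 of 578 and 72 of 160 cells, while *Tcf7* (52.2% and 56.3%) and *S1pr1* (30.6% and 31.3%) were at like shares. Of 6 cell cycle genes 2 were found in a larger share of cells and 2 in a share at least 2-fold lower. Among the other genes 54.0% were higher and 8.72% at least 2-fold lower. *Birc5* was at 8.13% and 3.13%. *Top2a* was at 8.82% and 13.1% of cells, but its level went from 56.5 to 42.8 CPM. Granulocyte markers summed to 776 CPM in cells with 0 of the genes and 276 CPM in cells with 7 or more, but by share of cells *S100a9* was at 14.5% and 16.9% and *Ngp* at 2.77% and 4.38%. Monocyte markers summed to 123 and 130 CPM, with *Lyz2* in 3.11% and 6.25% of cells.

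**Figure D4:**
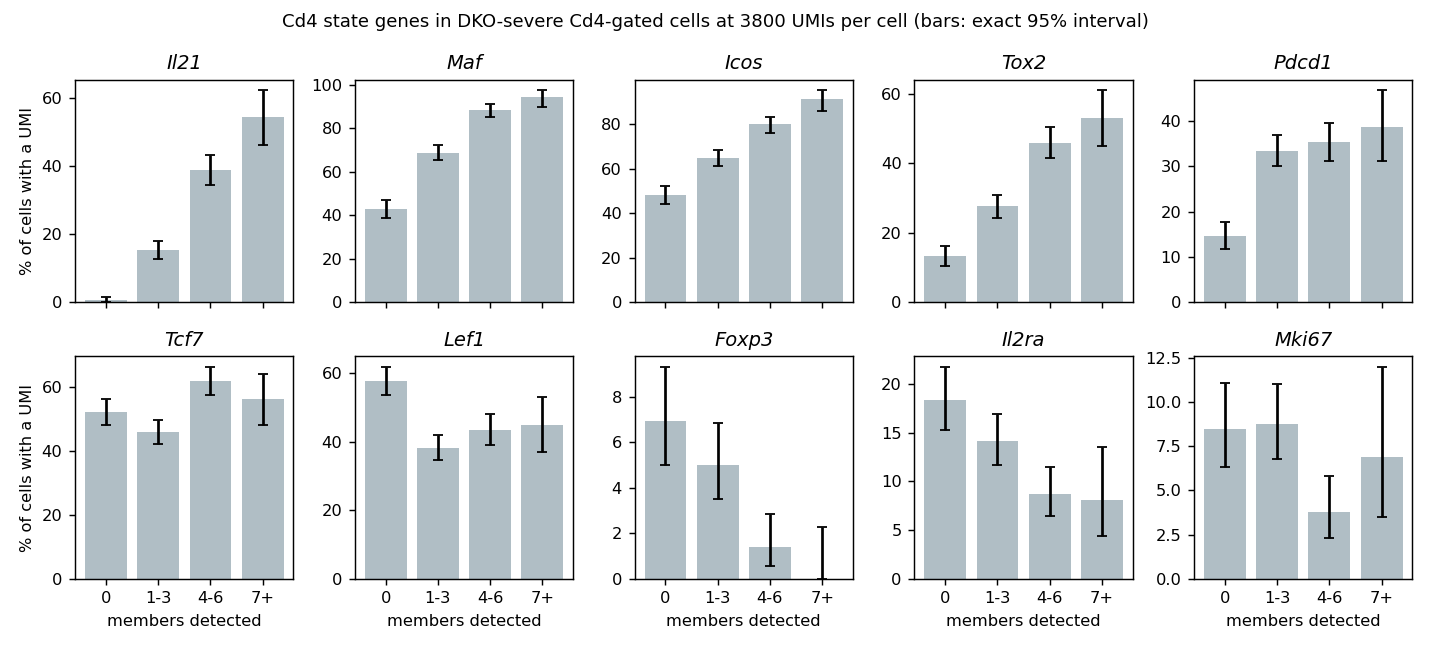
Share of DKO-severe Cd4-gated cells with a UMI (y axis, percent, 3800 UMIs per cell, exact 95% intervals) of 10 cell state genes, by the number of the 10 genes detected (0, 1 to 3, 4 to 6, 7 or more). *Il21* climbs from 0.519% to 54.4% while *Il2ra* falls from 18.3% to 8.13%.

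Leaving out the 10 genes themselves, the genes detected in most nearly the same cells as each of them, by the phi coefficient over 9572 genes and 1965 cells, were few. *B3galt1*, a galactosyltransferase, was among the 3 nearest of 8 of the 10, and of *Ralyl*, *Cntn5*, *Magi2* and *Sntg2* at phi of 0.46, 0.39, 0.41 and 0.40. *Ica1l* was among the nearest of 6 and *Pdzrn3* and *Tbc1d4* of 3 each. *Alcam*, an adhesion molecule, was the nearest of these to *Ralyl* (phi 0.48), *Tbc1d4*, a Rab GTPase-activating protein, to *Ntng1* (0.37), and *Pdzrn3*, a ubiquitin ligase with PDZ domains, to *Kcnc2* (0.27). *Epha3* again differed, with *Dlg2*, *Scn9a* and *Itgb1* at phi of 0.18 or less, and *Cntnap2* had *Pard3b* (0.25), *Stom* and *Mstn*. Pairs among the 10 reached higher values in some cases, with a phi of 0.49 for *Ntng1* and *Fbn2*. These are descriptions over cells of 1 library, and genes found in more cells reach higher values.

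Relatives of the 10 genes mostly stayed low. Of 39 other members of the same 10 families, 6 had a mean of 20 or more CPM in Cd4-gated cells and 1 of the 6 had a log2 ratio of 1 or more: *Ntng2*, the only relative of *Ntng1*, with 11.5 and 29.4 CPM (log2 ratio 1.35, 1.07 to 1.64). *Raly* and *Hnrnpc*, the relatives of *Ralyl*, were at 108 and 108 CPM and at 242 and 241 CPM. *Cntn4* (5 and 579 UMIs) and *Epha7* (0 and 414 UMIs) fell below the filter and were picked out after their values were seen. Of 24 binding partners 4 passed the filter and 0 of them differed by 2-fold, and the ephrins *Efna1*, *Efna2* and *Efna3* had at most 3 UMIs in either genotype. Over all tested genes 8.02% were higher and 3.39% lower, so counts of 1 of 6 and 0 of 4 say little.

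General neuronal markers were higher in DKO-severe Cd4-gated cells, where 14 genes summed to 73.6 CPM, against 7.61 CPM for the WT gate. In the same DKO-severe cells the 10 genes summed to 5415 CPM, but *Kcnc2* alone, at 58.5 CPM, lay below the neuronal sum. *Map2*, a microtubule protein, made up most of that sum and was the only 1 to pass the filter (5.47 and 64.8 CPM, log2 ratio 3.57, 3.18 to 3.98), while below the filter *Stmn2* had 0 and 65 UMIs, *Snap25* 0 and 52, *Tubb3* 1 and 35 and *Nefl* 0 and 0, picked out after their values were seen. Their sum was 31.9 CPM in DKO-severe cells with 0 of the 10 genes and 82.4, 93.3 and 100 CPM in the higher classes, and in cells with 7 or more 11 of the 14 were at 0 UMIs. Glial markers were at 111 CPM in cells with 0 of the genes and 117 in cells with 7 or more, and fibroblastic stroma markers at 4.10 and 9.87. *Rest* had 51.7 and 79.1 CPM (log2 ratio 0.61, 0.48 to 0.75). Of the 7 tested genes of its silencing complex 0 differed by 2-fold, where 8.02% of all tested genes were higher and 3.39% lower, so a count of 0 among 7 says little.

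T cell receptor segments, which the choice of genes did not use, were distributed unevenly. A cell was assigned to the *Trbv* (β chain variable) segment with most UMIs where 1 segment led. Among DKO-severe Cd4-gated cells so assigned *Trbv13-2* led in 10.1% of 217 cells with 0 of the 10 genes (6.46 to 14.9), 23.6% of 402 with 1 to 3, 29.5% of 237 with 4 to 6 and 45.5% of 145 with 7 or more (37.2 to 54.0). *Trbv12-2* showed no such course, with 30.0% (23.9 to 36.5) at 0 and 29.0% (21.7 to 37.1) at 7 or more. It was not at its WT share in any class, since it led in 8.15% of 417 WT Cd4-gated cells (5.71 to 11.2). *Trbv13-2* led in 46 of these 417 WT cells, and the interval (8.19 to 14.4) overlapped that of DKO-severe cells with 0 of the genes. By single gene, *Trbv13-2* led in 37.7% of 345 Cntn5-positive DKO-severe cells (32.5 to 43.0) and 18.8% of 656 Cntn5-negative ones (15.8 to 22.0). The share was highest for *Cntnap2*, at 47.9% of 96 positive cells, and for *Kcnc2* it was 27.1% of 155 positive and 24.9% of 846 negative cells.

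The α chain segments were also distributed unevenly. They were looked at after the β chain values were known. In DKO-severe Cd4-gated cells with a single leading *Trav* segment, *Trav8d-1* or *Trav9-2* led in 2.46% of 122 cells with 0 of the 10 genes (0.510 to 7.02), 27 of 169 with 1 to 3, 59.4% of 101 with 4 to 6 and 78.9% of 76 with 7 or more (68.1 to 87.5). Both segments contributed, with 46.1% and 32.9% in the last class. Among cells with 5 or more *Cntn5* UMIs they led in 101 of 130 (77.7%, 69.6 to 84.5), and the effective number of segments was 3.27, against 25.7 in the 308 cells without *Cntn5*. For *Trbv* segments the effective numbers in the same 2 classes were 3.50 and 5.84. In WT Cd4-gated cells *Trav8d-1* or *Trav9-2* led in 8 of 393. This held for each of the 10 genes: the pair led in 53.3% of cells with *Ralyl*, the lowest, and 69.5% of those with *Flrt2*, the highest, with *Epha3* at 60.9% of 69 and *Kcnc2* at 62.5% of 56. Among cells without the gene it led in 2.06% for *Ralyl* and in up to 28.3%, for *Cntnap2*.

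Seen from the segments, 167 DKO-severe Cd4-gated cells had a UMI of *Trav8d-1* or *Trav9-2*, and 73.7% of them had *Cntn5* and 97.0% *Ralyl*. Of the 12 WT Cd4-gated and 9 DKO-severe Cd8-gated cells with either segment 0 had *Cntn5*, and of the 11 WT Cd8-gated cells 1 did. In these 3 gates *Cntn5* was found in 5.17%, 6.45% and 4.81% of all cells, so counts among so few cells say little. Both segments occurred in 14 cells where 2.97 were expected, and single UMIs were the rule (at most 2 per cell). Cells with *Trav8d-1* alone had *Trbv13-2* in 47.4% and *Trbv12-2* in 44.7% of 38 cells, and those with *Trav9-2* alone in 54.3% and 34.3% of 35, against 22.8% and 31.3% of 918 cells with neither. *Trav* genes lie in duplicated blocks with near-identical copies, so the assignment of reads to a single copy is uncertain, and 3′ libraries reach the variable segments in few cells (17.0% of DKO-severe Cd4-gated cells for *Trav*).

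**Figure D5:**
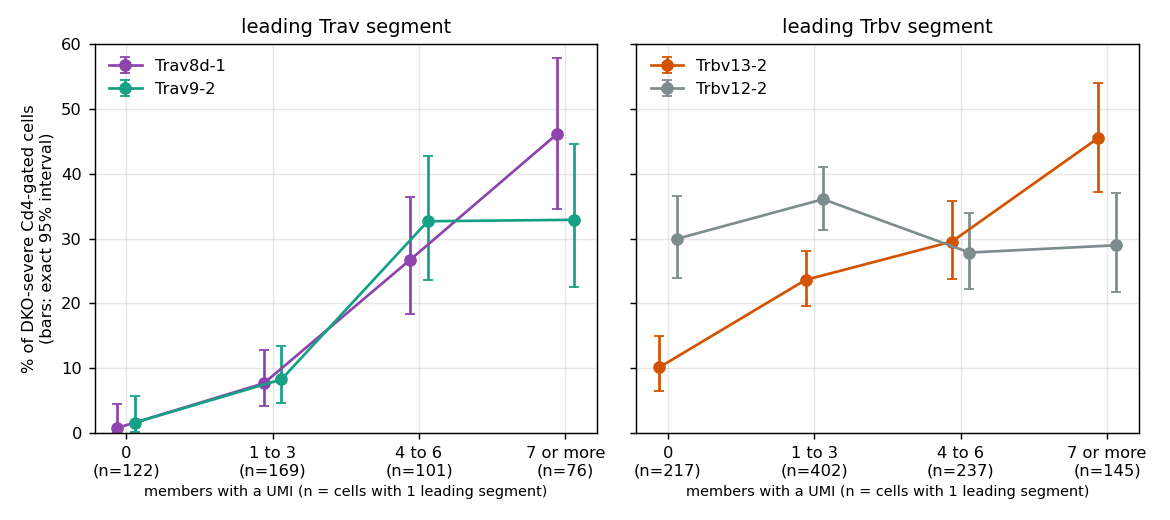
Share of DKO-severe Cd4-gated cells (y axis, percent, exact 95% intervals) whose leading *Trav* (left) or *Trbv* (right) segment is the 1 named, by the number of the 10 genes with a UMI (x axis, counts as deposited). *Trav8d-1*, *Trav9-2* and *Trbv13-2* climb to 46.1%, 32.9% and 45.5%, while *Trbv12-2* stays between 27.8% and 36.1%.

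The 10 genes are long. By the GRCm38 annotation their spans ran from 93 kb for *Flrt2* (chromosome 12, 95692226 to 95785215) to 2245 kb for *Cntnap2* (chromosome 6, 45059357 to 47304213), with *Cntn5* (chromosome 9, 9660891 to 10904775) at 1244 kb and a median of 342 kb, against 29.3 kb over all tested genes. Exons made up between 0.364% of the span, for *Cntn5*, and 8.30%, for *Flrt2*. Other long genes were also called more often in both directions: of 329 other tested genes of 200 kb or more, 67 (20.4%) had a log2 ratio of 1 or more in Cd4-gated cells, against 8.02% of all, and 7.90% had a ratio of -1 or less, against 3.39%, with a median log2 ratio of 0.08. Whether reads from introns were counted is not given in the sources used here, and how far internal priming fed the counts was not tested.

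The genes next to them on the chromosome were mostly silent in both genotypes, with 11 of 20 flanking genes at 0 UMIs. Beside *Ntng1*, *Vav3* had 92.6 and 164 CPM (log2 ratio 0.82) and *Prmt6* 8.49 and 12.0, beside *Cntnap2* *Cul1* had 77.3 and 103, and beside *Magi2* *Phtf2* had 59.7 and 84.9. *Slc12a2*, beside *Fbn2*, had 13.6 and 28.1 CPM (log2 ratio 1.05, 0.79 to 1.32). Larger ratios lay at the starts of the genes themselves, on the other strand, and had more UMIs in DKO-severe: *Gm2464*, which overlaps the start of *Ralyl*, had 7 and 709 UMIs (log2 ratio 5.20, 4.15 to 6.52), *4921504A21Rik*, which lies 0.481 kb from *Magi2*, 2 and 104, and *Gm32710*, which overlaps the start of *Cntn5*, 0 and 39. *Slc7a12*, the protein-coding gene to the right of *Ralyl*, and the genes to either side of *Cntn5* were at 0 in both genotypes. How strand was used in the counting is not given in the sources used here, so reads of a gene and of its partner on the other strand may not be separate.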

How the data were processed

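The deposited values were UMI counts per gene and barcode, produced by the authors using Cell Ranger 7.1.0 on mm10 and split into 1 matrix per genotype. The study told the genotypes apart by each cell's sequence barcode, and the limits used for this are not given in the sources used here. WT barcodes with more counts of the DKO-severe hashtag (3) were left out. Cells with under 500 genes or over 10% mitochondrial UMIs were removed. Scrublet in scanpy 1.11.5 marked 4 WT and 3 DKO-severe barcodes by its own threshold, so the highest 6% of its scores in each matrix were removed instead. CPM were taken from a gate's pooled UMIs. A total of 3 UMIs was the floor for ratios, and 95% intervals were exact (Clopper-Pearson, or conditional on the total), computed with scipy 1.17.1. For shares and co-detection each cell was thinned without replacement to 3800 UMIs, which dropped 689 WT and 477 DKO-severe cells. The steps were tested on simulated data. The members and lists were chosen with earlier results of these data known. Named beside the members were the 3 genes with the highest phi for each, among genes in 2% or more of cells, the list genes with 20 or more CPM and a log2 ratio of 1 or more in size, Cd4 state genes and chromosomal neighbours. The *Trav* segments were added after their values were seen. Depth was 45294779 UMIs in the WT and 69692053 in the DKO-severe matrix. Alternatives to the doublet removal, gates, cell filter, scaling, low-value filter, thinning and detection limit are given at the end. The result of 1 cell state gene is not reported here.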

Additional observations from a re-analysis of the deposited data

How the results depend on the processing

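No paired analysis was possible because each genotype had 1 mouse. All 10 genes kept a log2 ratio of 1 or more in Cd4-gated cells under each of 8 alternatives. In Foxp3-positive cells the count went from 6 to 4 with gates of 2 or more UMIs. In Cd8-gated cells the count went from 2 to 1 with gates of 2 or more UMIs and to 9 with no filter on low values. The share of DKO-severe Cd4-gated cells with any of the genes (70.6%) was 78.7% with gates of 2 or more UMIs, 75% with no thinning and 62.4% with detection at 2 or more UMIs. The median co-detection ratio (1.94) became 1.69 with those gates and 2.21 with that detection limit. The count of pairs at 2 or more (17) was 5 with the stricter gates, 9 with no thinning, 27 with the stricter detection and 11 in Foxp3-negative cells alone. The share of cells led by *Trav8d-1* or *Trav9-2* (77.7%, chosen after seeing the data) was 68.1% at 1 or more *Cntn5* UMI and 60.9% at 5 or more *Ralyl* UMIs. With gates of 2 or more UMIs the Foxp3-positive ratios of *Epha3*, *Cntnap2* and *Kcnc2*, set against a WT total of 0 at the floor of 3 UMIs, fell to -2.66, -0.26 and -1.30. Over all genes and alternatives, 65 of 80 single-gene ratios in Cd4-gated cells stayed within their interval, and 58 of 80 in Cd8-gated cells. In Foxp3-positive cells 68 of 80 did, and the 3 that changed sign are those just given. WT Foxp3-positive cells (64) limit every ratio in that gate.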

Other observations

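Of the 6587 WT cells, 1161 held 1 to 4 UMIs of the 10 genes and 23 held 5 or more. The 23 had a median of 120 counts of the DKO-severe hashtag and 2296 of the WT hashtag, against 109 and 1939 in WT cells without any of the genes. WT barcodes with more counts of the DKO-severe hashtag had been left out before this. At most 28 UMIs of the 10 genes were found in a WT Cd4-gated cell, against 949 in a DKO-severe one.

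In the DKO-severe non-T gate the genes were at 123 CPM summed over all 10 in 490 cells and at 34.0 CPM in the 271 of them without a Cd3 UMI, where *Epha3*, *Fbn2* and *Kcnc2* were at 0 UMIs, which allows up to 1.31 CPM.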
